A study of Mus musculus with 10 samples.

Results

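The AP-1 genes described here are Fos, Fosb, Fosl1, Fosl2, Jun, Junb, Jund, Atf3, Batf and Maff, 10 of the 21938 protein-coding genes of the mouse annotation (GENCODE M21 on mm10). They were chosen by name. Every interval of the 5 deposited ATAC-seq peak lists that touched one of these genes or the 20 kb to either side of it was kept. Merging the strong intervals (q-value of at most 0.01) of all lists gave 204075 regions, of which 155 lay in the 10 windows.

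Chromatin accessibility had been profiled in the prostate cancer line Myc-CaP, from a male FVB/NJ mouse, which descends from a tumor driven by a MYC transgene under a prostate-directed promoter, which all groups therefore share. Untreated cells (Ctrl) were set beside cells given oxaliplatin at 2 µM (Oxali), cisplatin at 2 µM (Cispl), interferon-γ, labelled as 1000 pg, per ml by the study's methods (IFNγ), or oxaliplatin at 2 µM with interferon-γ at 1000 pg (Oxali + IFNγ, the combination), and every group was collected at 48 h. Each group had 2 libraries, and the authors pooled them before calling peaks, so each group is 1 list of 1 cell line with no spread between replicates. In such bulk data, a less open site in every cell and fewer cells with the site open cannot be told apart. No test against replicate error was possible, all 4 treated lists share the same Ctrl list, and the 95% intervals below cover counting error only.

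AP-1 is a family of dimeric transcription factors built from basic leucine zipper proteins. Fos proteins pair with Jun proteins, Jun proteins can also pair with each other, and the dimers bind the TPA response element (TRE, TGAGTCA) and the related cyclic AMP response element (CRE, TGACGTCA). Fos, Fosb, Jun, Junb and Atf3 are immediate-early or stress-response genes that many cells switch on within minutes to hours of growth factor, cytokine or DNA damage signals.

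The sequences shown first are those of the 4 regions away from start sites that hold a TRE near the summit and passed 2-fold in a treated list, all on the plus strand of mm10, with the TRE in capitals. The first 3 lie in the regions that were at least 2-fold higher after IFNγ, and the last lies in a region that was at least 2-fold lower after Cispl. Each window holds the summit and reaches 20 bases past the motif.
Atf3, intron, chr1:191190028-191190157: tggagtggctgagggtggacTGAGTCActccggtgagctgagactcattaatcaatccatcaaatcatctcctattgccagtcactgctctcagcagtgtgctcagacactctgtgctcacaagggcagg
Jun, downstream of the gene, chr4:95035573-95035716: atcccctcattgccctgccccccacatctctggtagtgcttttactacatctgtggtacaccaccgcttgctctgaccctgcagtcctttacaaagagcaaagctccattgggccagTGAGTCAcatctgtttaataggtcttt
Jun, downstream of the gene, chr4:95040921-95041075: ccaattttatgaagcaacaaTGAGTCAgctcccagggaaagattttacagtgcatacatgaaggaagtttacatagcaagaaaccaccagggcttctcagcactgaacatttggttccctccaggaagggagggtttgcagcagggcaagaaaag
Fosl2, downstream of the gene, chr5:32177097-32177246: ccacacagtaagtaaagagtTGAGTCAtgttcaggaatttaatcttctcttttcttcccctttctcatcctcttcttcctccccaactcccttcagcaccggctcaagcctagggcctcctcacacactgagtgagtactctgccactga

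The summits of the regions with the largest rises after either platinum drug held no TRE, CRE or Jun-type element (TGACATCA) within 100 bp. They are shown in lower case throughout because no motif is marked.
Jund window, chr8:70710625-70710725: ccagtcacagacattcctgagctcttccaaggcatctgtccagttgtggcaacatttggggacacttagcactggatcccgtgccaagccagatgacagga
Junb window, chr8:84960006-84960106: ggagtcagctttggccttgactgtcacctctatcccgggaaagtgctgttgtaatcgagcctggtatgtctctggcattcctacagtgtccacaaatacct

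The height of each interval was recovered as a whole number of reads and divided by the genome background of its list, which ran from 9.62 to 13.8 reads. This multiple of background is called the level. A region that was not called in a list has no recorded height there, so its level in that list is unknown and not 0. The lists held between 113014 and 171785 strong regions, and their depths, read from the genome background, were 79.3% to 113% of Ctrl. The Cispl list began at a −log10 p-value of 2.99 and the other 4 at 2.00, so weak intervals had been cut from Cispl. Start-site regions of Foxa1, Hoxb13 and Krt8 were called in all 5 lists, Krt18 in 2 lists, Epcam in 1 list, and Cdh1 in none. The leukocyte genes Ptprc and Cd3e and the endothelial genes Cdh5 and Kdr had none either, while Lyz2 reached at most 5.06 and Pecam1 at most 2.98 in 3 lists each.

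The AP-1 windows were already open in untreated cells. Of the 155 regions, 103 (66.5%) were called in all 5 lists, against 41.8% of all merged regions, and 16 (10.3%) were called in a single list, against 21.2%. Strong intervals in the windows numbered 128 in Ctrl, 136 under Oxali, 137 under Cispl, 128 under IFNγ and 147 under the combination, of 118154, 153700, 171785, 113014 and 169143 in the whole lists. Their median level was 34.9 in Ctrl against 7.58 for all strong intervals of that list, and it was 32.6, 28.7, 28.3 and 27.9 in Oxali, Cispl, IFNγ and Oxali + IFNγ against 7.36, 6.39, 7.28 and 6.59. By position, 17 regions lay within 1 kb of a start site of a member, 17 at the start site of another gene, 41 in introns, 6 in untranslated regions, 4 in coding exons and 70 between genes. The start site nearest to 97 of the 155 belonged to the member itself. Atf3 had the most regions, 26 in a window of 87.7 kb, and Junb had 23 in 44.2 kb, while Jun had 8 in 43.2 kb.

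At the start-site region taken for each gene, 9 of the 10 members were called in every list. All 9 were lower after every treatment than in Ctrl, with intervals that did not overlap that of Ctrl. Batf was the exception. Start sites in general were lower too: the median relative log2 fold of all protein-coding ones, defined below, was -0.51, -0.60, -0.24 and -0.85 in Oxali, Cispl, IFNγ and Oxali + IFNγ. The share of them below Ctrl was not counted. The level ratio to Ctrl, before any correction, ranged from 0.572 to 0.702 under Oxali, 0.501 to 0.578 under Cispl, 0.534 to 0.761 under IFNγ and 0.344 to 0.578 under the combination. The combination gave the lowest level of the 5 lists at 8 of the 9 start sites. In Ctrl the order of levels was Jund, Fosl2, Jun, Atf3, Fos, Junb, Maff, Fosl1 and Fosb, and the intervals of Jund and Fosl2, of Fos, Junb and Maff, and of Fosl1 and Fosb overlapped their neighbours. The height at a summit is not scaled by the length of a region.

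Among the Fos genes, by the start-site region taken for each, Fosl2 was highest and Fosb lowest, although a second Fosb region inside the gene, given below, was higher. Fos (chr12:85473890-85477273), the founding partner of Jun in AP-1, had a start-site level of 154 in Ctrl (95% interval 147 to 161), 103 under Oxali, 86.2 under Cispl, 117 under IFNγ and 79.1 under the combination. The IFNγ list stayed nearest to Ctrl for this gene. Fosb (chr7:19302696-19310051), which encodes FosB and a shorter splice form that lasts in stimulated neurons, read 74.8, 46.3, 41.0, 43.8 and 27.8 in the same order of lists. The Oxali + IFNγ value, 25.0 to 30.8 by its interval, was the lowest start-site level among the members called in Ctrl.

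Fosl1 (chr19:5447547-5455946), which encodes Fra-1, a Fos protein linked to invasive growth of carcinoma cells, read 79.4 in Ctrl, 55.7 under Oxali, 45.9 under Cispl, 58.3 under IFNγ and 43.0 under the combination. Cispl and Oxali + IFNγ were the lowest lists, and their intervals overlapped. Fosl2 (chr5:32135801-32157842), which encodes Fra-2, read 255, 156, 139, 146 and 124. Its Ctrl level was above the 4 treated lists, which lay closer to one another than to Ctrl. Regions at a further distance within the same promoters behaved unequally: a second Fosb region 1.33 kb inside the gene went from 126 in Ctrl to 80.5, 63.7, 80.1 and 48.9, whereas the Fos region 1.61 kb upstream went from 133 to 116, 94.8, 105 and 95.4. The relative fold in Oxali + IFNγ, defined below, was 0.351 for the first and 0.649 for the second.

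The Jun genes were likewise highest in Ctrl and lowest in Oxali + IFNγ. Jun (chr4:95049034-95052222), the main transactivating subunit and the target of Jun N-terminal kinase, read 208 in Ctrl (199 to 216), 130 under Oxali, 108 under Cispl, 144 under IFNγ and 90.4 under the combination. Junb (chr8:84974484-84978718), a weaker activator that can oppose Jun, read 153, 89.1, 81.9, 97.2 and 58.0. Jund (chr8:70698949-70700616), the Jun gene that most resting cells keep active, had the highest start site of all in Ctrl at 260 (251 to 269), and read 158, 145, 139 and 89.4 after treatment. Oxali + IFNγ was the lowest list for all 3 Jun genes, with an interval below that of every other list. Regions further upstream in the same promoters were nearer to Ctrl: the Junb region 1.45 kb upstream read 152 in Ctrl and 135, 110, 124 and 99.0 after treatment, and the Jun region 1.12 kb upstream read 111, 90.7, 72.1, 83.5 and 75.0. At Jund, the region 1.23 kb upstream read 58.1, 58.4, 46.2, 50.8 and 52.6, so Oxali and Ctrl were level there while the start site next to it was at 0.609 of Ctrl.

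Atf3 (chr1:191170296-191218039), a stress-induced member that pairs with Jun proteins and often represses, read 177 in Ctrl (170 to 185), 102 under Oxali, 88.9 under Cispl, 120 under IFNγ and 67.7 under the combination. Its ratio in Cispl, 0.501, was the lowest of the members in that list. Maff (chr15:79346621-79359076), a small Maf protein without a transactivation domain, read 147, 96.2, 83.5, 91.0 and 85.0, and it was the member whose lowest list was Cispl, with an interval overlapping that of Oxali + IFNγ. A second Maff region, 1.42 kb upstream of that start, covers another annotated start of the gene (chr15:79346548-79346752). It was called only in Cispl, at 15.3, and Oxali + IFNγ, at 16.7, over local backgrounds of 143 and 123 reads. Batf (chr12:85686669-85709087), which is best known for its work with Jun and IRF proteins in lymphocytes, had no called start site in Ctrl or IFNγ. It was called at 5.41 (4.14 to 6.95) in Oxali, 3.92 (2.95 to 5.12) in Cispl and 2.94 (2.08 to 4.04) in Oxali + IFNγ, which is 38 to 61 reads, and the intervals of neighbours in that order overlapped.

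**Figure D1:**
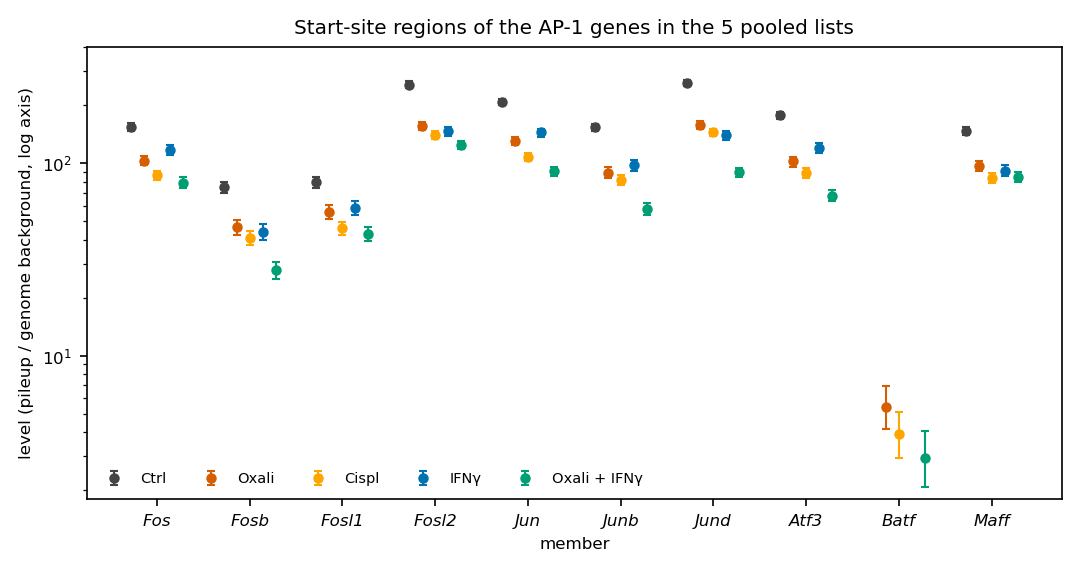
Start-site level (pileup over genome background, log axis) of each AP-1 gene in the 5 pooled lists, with 95% exact Poisson intervals of the read count that cover counting error only. All 9 members called in Ctrl sit highest in Ctrl, and Oxali + IFNγ is lowest for all of them but Maff, while Batf appears in 3 lists only, between 2.94 and 5.41.

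Lower levels were shared by other strong regions. Ratios to Ctrl depended on level across the genome: the strongest 10% of the regions called in all 5 lists had a median log2 ratio of -0.49 under Oxali, -0.72 under Cispl, -0.53 under IFNγ and -0.88 under the combination, whereas the weakest 10% stood at 0.28, 0.36, 0.0027 and 0.34. Relative fold is the level ratio divided by the median ratio over the 85384 regions called in all 5 lists. On that scale the median start-site log2 fold of the 9 members was -0.84, -0.94, -0.41 and -1.34 in the 4 treated lists, beside -0.51, -0.60, -0.24 and -0.85 over all protein-coding start sites. No member start site was at least 2-fold lower in Oxali, where 3.93% of all start-site regions were, and none was in IFNγ, where 0.950% were. Jun and Atf3 were past 2-fold in Cispl (2 of 9, against 10.5% of all), and all but Maff were in Oxali + IFNγ (8 of 9, against 40.3%).

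The distance from Ctrl was smaller when each region was set against others of the same level. Divided by the median ratio of the regions in the same hundredth of mean level, the member medians were -0.12, -0.10, -0.079 and -0.39 on the log2 scale, beside -0.092, -0.051, -0.076 and -0.21 for all start sites. Fos stood at 0.985 under Oxali, 0.971 under Cispl, 1.13 under IFNγ and 1.00 under the combination on this scale, and Fosl2 at 0.920, 0.979, 0.841 and 0.985. Fosb stayed lowest, at 0.688, 0.758, 0.758 and 0.422, and its Oxali + IFNγ value was the only one past 2-fold. Jund and Junb in Oxali + IFNγ were at 0.698 and 0.704, and Maff was at 1.12. What part this dependence on level played in the lower start sites was not tested.

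**Figure D2:**
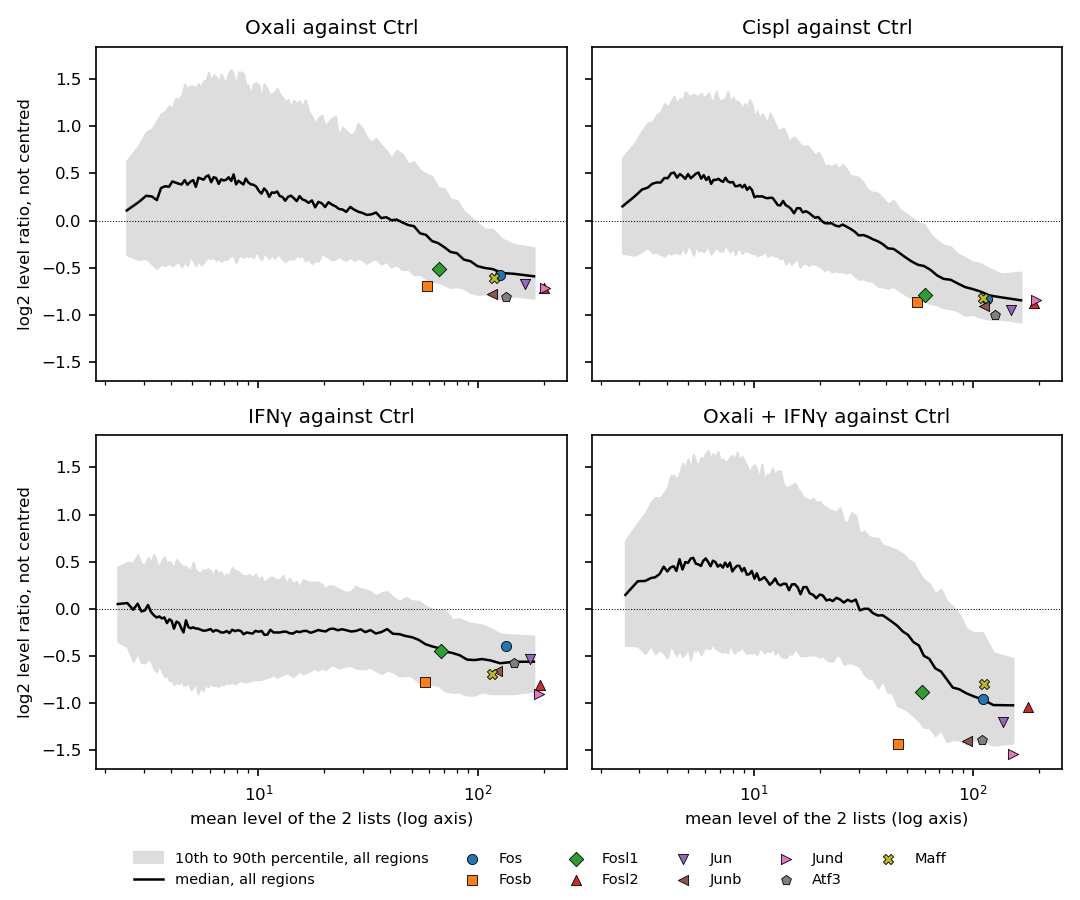
Log2 level ratio to Ctrl, not centred, against the mean level of both lists (log axis) for the start sites of 9 AP-1 genes, over the median (line) and the 10th to 90th percentile (grey) of all regions called in all 5 lists. The median bends from 0.34 in the weakest 10% to -0.88 in the strongest 10% of Oxali + IFNγ, most members lie near that line, and Fosb lies under it in all 4 panels.

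Every treated list had intervals around the AP-1 genes that Ctrl lacked, at a lower share than across the genome. A gained region is a strong interval of the treated list that overlaps no deposited Ctrl interval. In Oxali, 21 of 136 strong intervals were gained (15.4%), against 32.5% of all strong intervals of that list. Cispl gained 25 of 137 (18.2%, against 37.3%), IFNγ gained 12 of 128 (9.38%, against 12.9%) and Oxali + IFNγ gained 31 of 147 (21.1%, against 38.4%). At least 1 gained interval lay in the window of all 10 members in Oxali, where 73.4% of all protein-coding genes had one, and of all 10 in Oxali + IFNγ (78.1%). In Cispl it was 9 members, all but Atf3 (79.6%), and in IFNγ 7 members, all but Fosl1, Fosl2 and Jun (44.7%). With regions called by level alone, at 4 times the genome background, members gained 13.3%, 13.2%, 9.09% and 15.3% beside 18.2%, 19.4%, 5.30% and 21.8% of all, so that the order of members and genome turned in IFNγ.

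Lost regions, which are strong in Ctrl and overlap no deposited interval of the treated list, were fewer. There were 8 of 128 in Oxali (6.25%, against 9.11% of all strong Ctrl intervals), 7 in Cispl (5.47%, against 5.90%), 10 in IFNγ (7.81%, against 15.8%) and 8 in Oxali + IFNγ (6.25%, against 7.59%). The Atf3 window held 5, 4, 4 and 7 of these losses, more than any other member in each list. Among the gains, Junb had 4, 4, 2 and 5 and Batf 2, 5, 2 and 5. Some gained intervals bordered open chromatin of Ctrl: 6 of 21, 7 of 25, 6 of 12 and 8 of 31 lay within 500 bp of a Ctrl interval, beside 18.9%, 23.8%, 38.6% and 16.8% of all gained intervals.

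**Figure D3:**
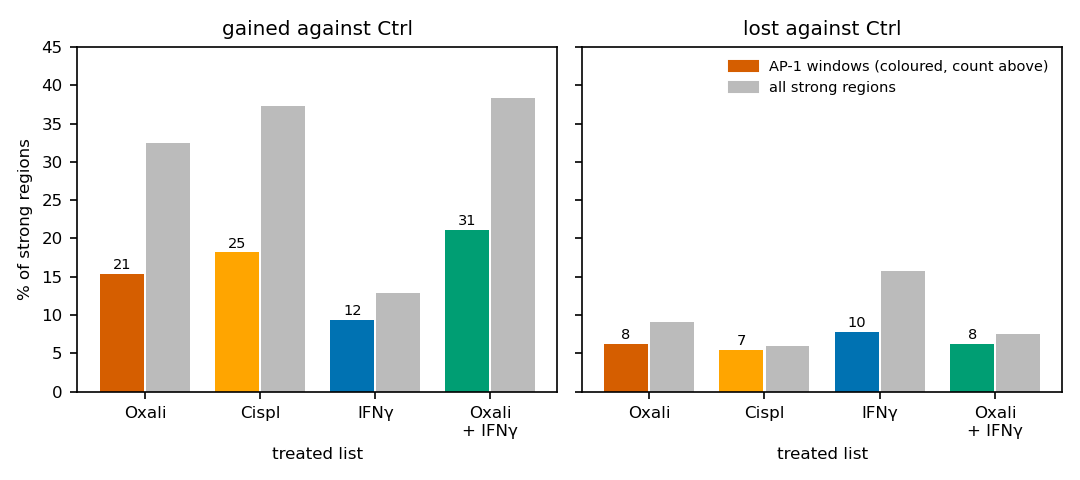
Percentage of strong intervals gained (left, of the treated list) or lost (right, of Ctrl) in the AP-1 windows (coloured bars, count above) and among all strong intervals (grey). The coloured bar is the shorter of each pair, from 9.38% beside 12.9% in IFNγ to 21.1% beside 38.4% in Oxali + IFNγ for gains.

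Among regions called in both lists of a comparison, few in the AP-1 windows passed 2-fold on the relative scale in Oxali, Cispl or IFNγ. More did in Oxali + IFNγ, mostly lower ones, and the balance of higher and lower ones depended on the scale. In Oxali, 2 of 109 were at least 2-fold higher (11.0% of all regions were) and 4 were at least 2-fold lower (1.75%). In Cispl 1 of 108 was higher (9.75%) and 5 were lower (2.64%). IFNγ had 3 of 107 higher (2.04%) and 0 lower (0.618%). Oxali + IFNγ had 3 of 110 higher (12.7%) and 21 lower (7.99%), a count that dropped to 5 when ratios were centred within hundredths of mean level. With the pileup set over the local background instead, 1 region was higher and 1 lower under Oxali, 3 and 1 under Cispl, 3 and 0 under IFNγ, and 4 and 3 under the combination. Without centring, Cispl had 3 higher and 0 lower, and IFNγ turned to 0 higher and 2 lower. The median relative log2 fold was -0.32, -0.42, -0.0015 and -0.41, beside 0.040, 0.061, 0.022 and 0.038 over all regions, and it was -0.098, -0.018, 0.11 and -0.022 with the centring by hundredth. Of the regions, 28.4% in Oxali and 28.2% in Oxali + IFNγ belonged to the strongest 10% of the genome.

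Around Fos, the gained region with the highest −log10 q-value lay 13.1 kb downstream of the start, between genes (chr12:85486885-85487098). It was called at 34.0 under Oxali, 28.8 under Cispl, 25.6 under IFNγ and 35.6 under the combination with −log10 q-values of 69.53, 66.23, 35.23 and 104.3, and was not called in Ctrl. It was therefore gained in all 4 treated lists, with the nearest Ctrl interval 277 bp away. The local background was 130, 142, 95.6 and 134 reads, far above the genome background, and the height in Ctrl is not recorded. A region 7.03 kb downstream (chr12:85480812-85481165) read 15.5 in Ctrl, 9.05 in Oxali, 19.2 in IFNγ and 12.7 in Oxali + IFNγ and was lost in Cispl. The strongest distal region of Fos, 18.5 kb upstream, read 195, 128, 103, 125 and 80.1, which follows the start site, while the region 8.80 kb upstream read 20.7, 31.4, 36.3, 15.3 and 28.5 and was higher in the 3 lists with a platinum drug.

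At Fosb, an interval 25.1 kb past the start in an intron of Rtn2 (chr7:19284860-19285080) read 15.2 in Ctrl, 12.1 in Oxali and 13.1 in Oxali + IFNγ and was lost in Cispl and IFNγ. A region 10.7 kb downstream was called only in the platinum lists, at 11.2 in Oxali, 13.4 in Cispl and 11.9 in Oxali + IFNγ, and it holds a TRE. Fosl1 gained an intronic region with a TRE 4.29 kb inside the gene in Oxali (15.1) and Oxali + IFNγ (14.9), the same lists that lost 1 Ctrl interval inside its start-site region, which as a whole stayed called in all 5 lists. For Fosl2, the downstream region whose sequence is shown above (41.4 kb, chr5:32176726-32177828) read 7.41 in Ctrl, 5.23 under Oxali, 3.85 under Cispl, 9.98 under IFNγ and 6.04 under the combination, a relative fold of 0.495 (0.346 to 0.703) in Cispl and 1.60 (1.19 to 2.16) in IFNγ. The lowest and the highest of its lists were thus Cispl and IFNγ, on either side of Ctrl.

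The Jun windows held the highest relative folds of the family. In the Jund window, a region 11.7 kb downstream in a coding exon of Iqcn (chr8:70710081-70711058) read 11.5 in Ctrl, 51.5 under Oxali, 23.9 under Cispl, 8.21 under IFNγ and 45.9 under the combination. Its relative fold was 4.07 (3.37 to 4.93) under Oxali, 1.99 (1.63 to 2.44) under Cispl, 0.853 under IFNγ and 3.64 (3.02 to 4.41) under the combination. The lists with oxaliplatin stood highest, Cispl stood between, and IFNγ alone was not above Ctrl. In the Junb window, a region 18.7 kb downstream in a coding exon of Rnaseh2a (chr8:84959704-84960583), a subunit of the nuclease that removes ribonucleotides from DNA, read 7.58, 24.4, 27.0, 3.33 and 23.6. Its relative fold was 2.91 (2.29 to 3.72) under Oxali, 3.40 (2.70 to 4.32) under Cispl, 0.522 (0.338 to 0.788) under IFNγ and 2.82 (2.23 to 3.60) under the combination. All 3 platinum lists were above Ctrl here and IFNγ alone was below it, and these folds moved little with the centring by hundredth (4.15, 1.97, 0.843 and 3.78 for the first region and 2.70, 3.22, 0.502 and 2.62 for the second). Over the local background only 1 region of the windows was at least 2-fold higher in Oxali, so these regions did not both keep that call. Both regions lie inside other genes, which have nearer start sites than the Jun genes.

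Close to the Junb promoter, an interval 3.38 kb upstream (chr8:84981964-84982244) was gained in all 4 treated lists, with the highest −log10 q-values of all gained intervals of the family in the platinum lists (130.6 in Oxali, 82.13 in Cispl, 162.4 in Oxali + IFNγ and 20.84 in IFNγ). Its level was 87.1 under Oxali, 60.2 under Cispl, 46.2 under IFNγ and 78.1 under the combination. The nearest Ctrl interval was 635 bp away, and the local background was 399, 387, 267 and 368 reads, far above the genome background, and the height in Ctrl is not recorded. Beside it, the region 2.55 kb upstream, chosen after its values were seen, read 53.9 in Ctrl, 103 under Oxali, 60.5 under Cispl, 59.0 under IFNγ and 75.4 under the combination and holds a TRE. The lists with oxaliplatin were again the highest of the 5. Further gains were a region 14.6 kb upstream in an intron of Hook2 (chr8:84993139-84993402; 24.3, 22.5 and 32.5 in Oxali, Cispl and Oxali + IFNγ) and one 9.85 kb downstream at the start sites of Gm49661, Prdx2 and Rnaseh2a (chr8:84968768-84968991), called in every list but Ctrl at 20.9, 23.9, 19.7 and 21.9, with a Ctrl interval 88 bp away. The neighbouring region 9.11 kb downstream read 77.4 in Ctrl, 42.8 under Oxali, 54.6 under Cispl, 65.1 under IFNγ and 38.1 under the combination, with a relative fold of 0.499 (0.446 to 0.557) in Oxali.

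The Jun gene itself gained intervals over its transcribed part in the platinum lists. One in its untranslated region, 2.12 kb past the start (chr4:95049972-95050211), was called at 43.7 in Oxali, 28.9 in Cispl and 37.2 in Oxali + IFNγ, and one in its coding exon, 1.45 kb past the start, at 36.8, 24.2 and 24.6. Neither was called in Ctrl or IFNγ, and the nearest Ctrl intervals were 1265 bp and 608 bp away. A region 18.4 kb upstream (chr4:95070359-95070999) read 5.93, 2.66, 8.21, 6.76 and 5.19, a relative fold of 0.405 (0.256 to 0.629) in Oxali. Jund lost an interval 14.1 kb downstream in an Iqcn intron in Oxali (11.2 in Ctrl, 15.7, 13.0 and 12.9 in the other treated lists) and one 1.77 kb downstream in IFNγ (56.5 in Ctrl, 40.2 in Oxali, 38.1 in Cispl and 32.2 in Oxali + IFNγ).

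After IFNγ alone, 3 regions were at least 2-fold higher, and each holds a TRE near its summit, shown above, as did 32.8% of the 1876 regions past 2-fold higher across the genome in that list and 20.2% of all regions called in both lists. Under Oxali, 0 of 2 held one, beside 32.3% across the genome, and with so few regions nothing is read from either count. The Jun region 16.6 kb downstream (chr4:95035323-95035935) read 2.31 in Ctrl, 4.44 in Oxali, 4.47 in IFNγ and 5.73 in Oxali + IFNγ and was not called in Cispl, with a relative fold of 2.30 (1.40 to 3.85) in IFNγ and 2.26 (1.44 to 3.62) in Oxali + IFNγ. The Jun region 11.2 kb downstream (chr4:95040712-95041565) read 5.35, 7.81, 9.37, 10.1 and 10.7, with 2.24 (1.62 to 3.11) in IFNγ. Both are weak regions, with 28 and 65 reads in Ctrl, and Ctrl was the lowest list in which each was called. The Atf3 region 6.77 kb upstream, in an intron of the longer transcript (chr1:191189851-191190485), read 11.1 in Ctrl, 19.7 under Oxali, 11.7 under Cispl, 19.5 under IFNγ and 20.4 under the combination, with 2.09 (1.67 to 2.63) in IFNγ. Cispl was level with Ctrl there, at 1.00 (0.793 to 1.27), and the other 3 lists lay between 19.5 and 20.4. None of the 3 passed 2-fold in IFNγ without the centring, which divides by 0.841 in that list, and with the centring by hundredth they stood at 1.98, 2.25 and 2.07.

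Atf3, whose window is the widest, held 5 of 8, 4 of 7, 4 of 10 and 7 of 8 losses, counted against the same Ctrl list each time. Some were parts of merged regions that stayed called in the same list. The region 14.5 kb past the start lost an interval in Oxali and Oxali + IFNγ but read 5.94 and 6.04 there. The region at 13.6 kb lost one in Oxali + IFNγ but read 8.45 there. An intronic interval 19.1 kb upstream (chr1:191202297-191202510) was called in Ctrl alone, at 5.11 (62 reads), and so was lost in all 4 treated lists, and one 22.7 kb upstream read 3.79 in Ctrl, 3.05 in Cispl and 3.43 in IFNγ and was lost in Oxali and Oxali + IFNγ. Inside the gene, a region 7.09 kb past the start (chr1:191175623-191176340) read 8.48, 3.90, 5.09, 9.46 and 3.95, a relative fold of 0.416 (0.285 to 0.597) in Oxali and 0.423 (0.296 to 0.597) in Oxali + IFNγ, and one 11.0 kb past the start read 9.80 in Ctrl and 3.90 in Oxali (0.360, 0.249 to 0.512) and was called in no other list. All 4 regions between 7.09 and 14.5 kb past the start that were called in every list stood lower in Oxali and Oxali + IFNγ than in Ctrl by level. Their local background, the mean coverage around the summit, was also lower there, at 14.5 kb 56.7 reads in Ctrl, 18.6 in Oxali and 21.7 in Oxali + IFNγ. Set over that local background, the same 4 regions stood higher in both lists than in Ctrl, so the direction turned with the scale: at 13.6 kb, 144 reads lay over 62.5 in Ctrl, 75 over 19.6 in Oxali and 109 over 22.9 in Oxali + IFNγ. IFNγ stood above Ctrl at the same 4, for example 19.0 against 11.9 at 13.6 kb. Over its local background the region at 11.0 kb also stood higher in Oxali than in Ctrl, with 44 reads over 23.7 against 119 over 73.8.

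The Batf window was open mainly inside and beyond the gene. Its strongest region, 19.0 kb past the start in an intron, read 68.5 in Ctrl, 69.6 under Oxali, 53.8 under Cispl, 60.6 under IFNγ and 69.0 under the combination, while the one next to it at 20.0 kb (chr12:85706528-85706929) read 17.4, 11.6, 8.72, 16.5 and 12.7, a relative fold of 0.478 (0.379 to 0.601) in Cispl. The neighbours differed in that the 3 platinum lists lay below Ctrl only at the weaker one, apart from Cispl, which was the lowest list at both. At the edge of the Maff window, which only the Oxali + IFNγ interval reached, a region 21.6 kb upstream was called only in the platinum lists. It read 19.0, 21.4 and 21.8 in Oxali, Cispl and Oxali + IFNγ, over a local background of 120, 138 and 115 reads, and its height in Ctrl is not recorded. The strongest region of the window, 20.7 kb downstream, read 190, 169, 135, 145 and 132. Ctrl was highest and Oxali + IFNγ lowest there, as at most start sites.

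**Figure D4:**
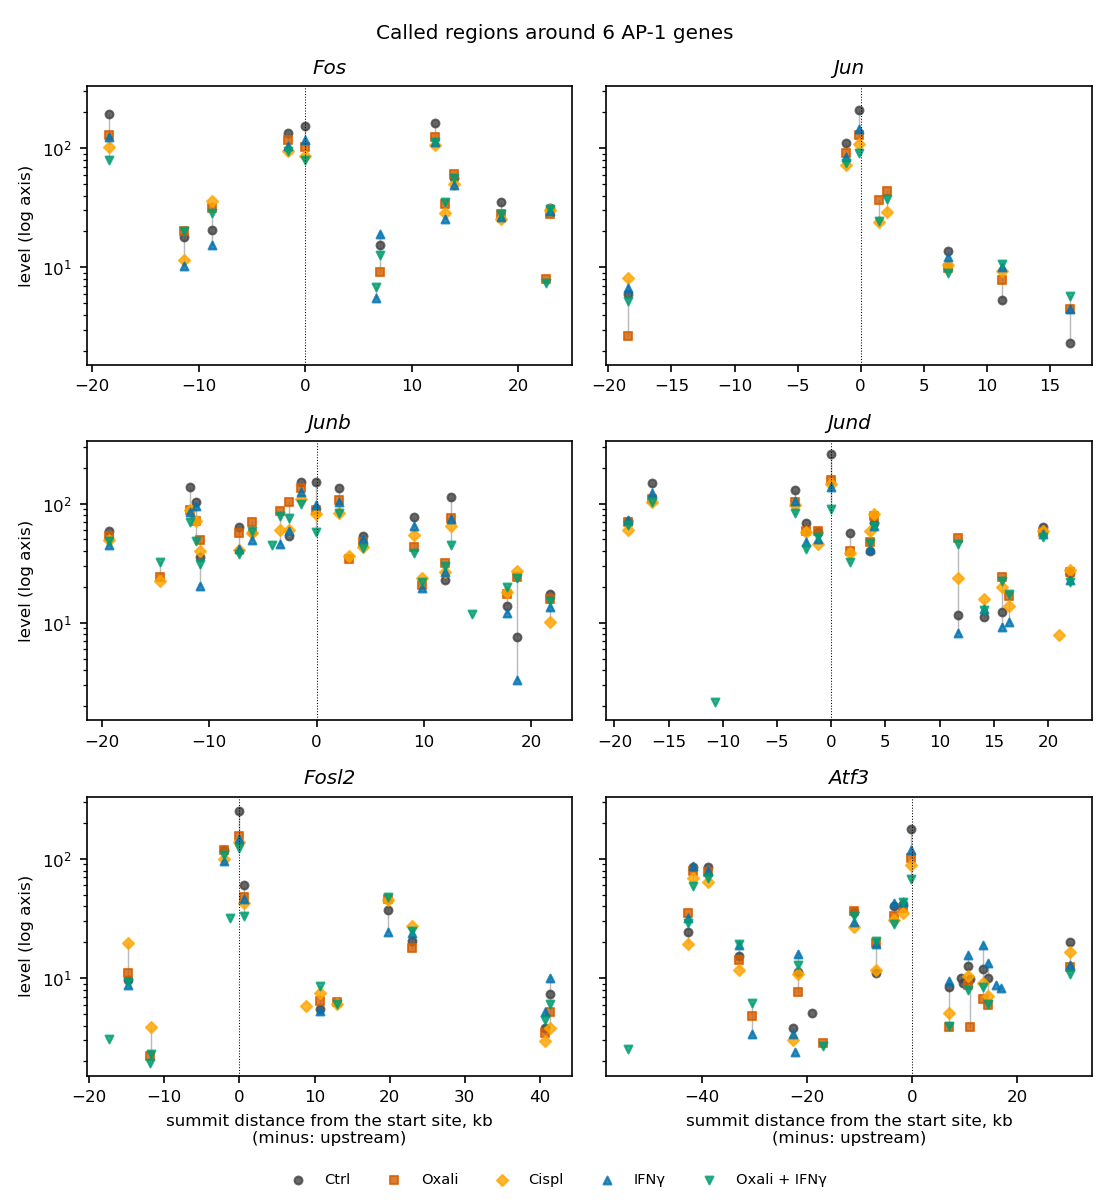
Level (log axis) of every merged region around 6 AP-1 genes by distance of its summit from the start site in kb (minus is upstream), one symbol per list, with a grey line joining the lists of a region. Ctrl is the top symbol at each start site, while at the Jund region 11.7 kb and the Junb region 18.7 kb downstream the platinum lists are on top.

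Oxaliplatin and cisplatin, which share the platinum centre and differ in their carrier and leaving groups (diaminocyclohexane and oxalate against ammines and chlorides), were compared at the same dose and time, as 1 pair. Of 120 AP-1 regions called in both lists, 0 were at least 2-fold higher in Oxali (1.60% of all regions were) and 1 was at least 2-fold lower (2.46%), namely the Jun region 18.4 kb upstream at 0.296 (0.191 to 0.446). The highest ratio was 1.97 (1.72 to 2.26) at the Jund region 11.7 kb downstream. The median relative log2 ratio was 0.027, beside -0.030 for all regions. Its sign turned with the centring, to -0.063 within 10 classes of mean level and -0.073 within 100. The interval lay above 1 at 30 of the 120 regions (19.1% of all regions) and below 1 at 23 (17.9%), and with the centring by hundredth above 1 at 19 (19.5%) and below at 34 (15.3%). At the start sites of the 9 members called in every list the ratio ran from 0.993 to 1.11, and the interval left out 1 for Fos (1.01 to 1.18) and Jun (1.03 to 1.19). These 2 rest on the centring over all regions, since by hundredth Fos stood at 1.01 (0.928 to 1.09) and Jun at 1.01 (0.938 to 1.09), while Jund moved from 1.00 to 0.915 (0.858 to 0.976). With 1 pooled list per drug, these intervals do not cover the spread between cultures.

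AP-1 motifs were about as frequent near the summits of the AP-1 windows as near other summits, and over whole intervals the share was 31.0% in the windows and 26.4% of all regions. The TRE, searched on both strands within 100 bp of a summit, was in 28 of 155 regions (18.1%), against 17.9% of all merged regions. No region held a CRE (0.478% of all), and 3 (1.94%, against 1.81%) held the Jun-type element. Together 29 regions (18.7%, against 19.8%) held an AP-1 motif within 100 bp of the summit. They were 17 of the 70 between genes, 9 of the 41 in introns and 1 of the 17 at member start sites, which was that of Fosl2, with the rest at start sites of other genes. Its TRE (chr5:32135854-32135860) lies in the transcribed part just past the start. Of other elements known from these promoters, the CArG box, which binds serum response factor, was in 4 regions (2.58%, against 0.870%), the κB site, bound by NF-κB, in 11 (7.10%, against 3.43%), and the GAS element (TTCNNNGAA) in 5 (3.23%, against 6.06%). The CArG regions were 2 of Junb, 1 of Fos and 1 of Fosb. Over whole intervals the shares were 5.16% against 2.3% for the CArG box, 17.4% against 8.72% for the κB site and 13.5% against 14.2% for the GAS element. Of merged regions that hold a gained interval inside a window, 8 of 21 under Oxali, 2 of 24 under Cispl, 3 of 12 under IFNγ and 8 of 30 under the combination held an AP-1 motif, beside 23.4%, 16.9%, 24.9% and 22.0% of all gained regions. A match is a run of letters and no evidence of binding.

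In the RefSeq promoters (GRCm38.p6, the 250 bases before each start, 11 entries for 9 members and none for Fosl1), no TRE was found (4.46% of 32851 promoters hold one). Some RefSeq starts are not the start sites measured above: the Jund entry starts 1210 bp upstream and the Fosl2 entry 671 bp downstream of them, and both stretches lie outside the start-site region, so the promoters of the measured Jund and Fosl2 starts were not searched. The Maff entries start 1443 bp and 544 bp upstream and 338 bp downstream, and the other 6 members lie within 51 bp. The exceptions among related elements were Jun and Maff, whose promoters hold a Jun-type element or CRE and are shown with it in capitals. Both start sites had a lower level in every treated list, as had all 9 members called in Ctrl. The Jun-type element of the Jun promoter is the classical site of Jun autoregulation.
Jun, minus strand, chr4:95052223-95052342: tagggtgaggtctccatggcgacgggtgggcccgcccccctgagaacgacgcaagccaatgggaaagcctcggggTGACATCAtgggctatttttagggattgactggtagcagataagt
Maff, plus strand, CRE, chr15:79347400-79347519: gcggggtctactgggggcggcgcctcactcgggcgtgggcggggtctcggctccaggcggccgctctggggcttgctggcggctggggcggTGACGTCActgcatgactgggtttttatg
Maff, plus strand, Jun-type, chr15:79348282-79348401: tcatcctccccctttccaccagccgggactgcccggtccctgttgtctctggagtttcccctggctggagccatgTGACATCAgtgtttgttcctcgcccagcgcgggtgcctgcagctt

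Across all promoters 1.55% hold the CRE and 2.93% the Jun-type element. Sites of the κB type were in promoters of Fos, Fosb, Fosl2 and Maff (5.93% of all promoters hold one). No searched stretch of 250 bases of a member held a GAS element (7.02%) or a CArG box (1.47%). Outside these stretches, the Fosb start-site region holds a CArG box just further upstream (chr7:19310308-19310317). The Fos start-site region holds a GAS element past the start (chr12:85473937-85473945).

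At other genes of the pathway, chosen for their textbook roles, the share of gained intervals lay above that of the members in every list, and below that of the genome except in IFNγ for the kinases and the targets. Of 14 other leucine zipper genes, 10, 12, 10 and 13 had a gained region in Oxali, Cispl, IFNγ and Oxali + IFNγ, beside 73.4%, 79.6%, 44.7% and 78.1% of all protein-coding genes, whose windows differ in width, and 26.8%, 29.8%, 10.1% and 30.3% of their strong intervals were gained. Of their regions called in both lists, 22 of 128, 10 of 135, 3 of 125 and 25 of 131 were at least 2-fold higher and 5, 4, 0 and 18 at least 2-fold lower, where 11.0%, 9.75%, 2.04% and 12.7% of all regions were higher and 1.75%, 2.64%, 0.618% and 7.99% lower. The same shares stand behind the counts of the next 3 lists. Bach2, a repressor that pairs with small Maf proteins, had 21, 23, 4 and 23 gained regions in a window of 387 kb, Atf2 had 4, 6, 1 and 6, and Creb1 had 4, 5, 1 and 6.

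For 15 upstream kinases and ternary complex factors the gained shares were 28.8%, 33.5%, 16.2% and 31.5%, with Mapk10, which encodes a Jun N-terminal kinase, at 12, 10, 1 and 15 gained regions in 343 kb, Map2k6 at 4, 9, 1 and 7 and Elk3 at 6, 5, 1 and 6. Their regions were at least 2-fold higher at 5 of 116, 5 of 125, 0 of 112 and 5 of 121 and at least 2-fold lower at 5, 10, 2 and 22. The 8 MAPK phosphatase genes, which switch these kinases off, had gained shares of 18.8%, 25.8%, 9.72% and 26.1%, with Dusp1 at 4, 6, 1 and 7 gained regions and Dusp16 at 2, 3, 3 and 4. In their windows 6 of 61, 5 of 64, 2 of 61 and 9 of 62 regions were higher and 1, 1, 0 and 5 lower. The 14 AP-1 target genes had gained shares of 27.5%, 29.1%, 16.7% and 30.3%, with Cd44 at 3, 3, 4 and 4 and Vim at 4, 3, 2 and 5, and 8 of 80, 7 of 77, 1 of 76 and 9 of 78 regions were higher and 3, 3, 0 and 9 lower. Windows differ in width, so counts of gains do not rank these genes.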

How the data were processed

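ATAC-seq libraries of Myc-CaP cells (10 libraries, 2 per group, 5 groups) were grouped by the labels. Per the submitters' processing notes and the study's methods, reads were trimmed with cutadapt, aligned to mm10 with Bowtie2 2.2.8, filtered with SAMtools for mapping quality, duplicates and mitochondrial reads, and pooled within a group. Peaks were called with MACS2 2.1.0 without a control library, and blacklisted peaks were removed. In the files the authors deposited, each interval carries a fold (a ratio of pileup to local background, each plus 1), a −log10 p-value and a −log10 q-value. The depth of single libraries is not given by these lists, so precision was judged from the reads under each summit.

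The whole pileup was recovered from the deposited fold and −log10 p-value for 100% of peaks in every list, and was divided by the genome background of the list. Strong intervals had a q-value of at most 0.01. Gained and lost were set by an overlap of 1 bp with any deposited interval of the other list. Genes came from GENCODE M21, with windows of 20 kb, and mm10 is the same assembly as the GRCm38 reference read here (21 chromosomes matched, 0 intervals past an end). Start-site regions lay within 1 kb of a protein-coding start. The region covering a start was used, otherwise the nearest, and of several the one with the highest mean level, a choice made after values were seen. Level ratios were centred on the median over regions called in all 5 lists, and 2-fold was the threshold. Intervals are exact Poisson for levels and exact conditional binomial for ratios, at 95%. Without replicates no test was run.

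All 10 members were named. Of the distal regions, the text names per treatment the 3 gained and the 3 lost with the highest −log10 q-value and the 5 with the largest relative fold in each direction past 2-fold, and of the other pathway lists at most 3 genes with the most gains. Others are given to show the window of a member. Sequence windows were widened beyond the planned length to reach the motif, and those without a motif were added, after values were seen. The members and lists were chosen with earlier results of these data known. Some cell type markers are not reported here. The steps were tested on simulated data: pileup was recovered for 100% of 20000 peaks, 99.0% of 200 regions changed 4-fold and 0.197% of 19800 unchanged regions passed 2-fold, and 96.1% of 2000 intervals held the true ratio. The simulated ratios had Poisson counts, the same shift for every region and no spread between libraries. In the lists the ratios depended on level, so these rates need not hold for them. Python 3.11.15, NumPy 2.4.6, pandas 2.3.3, SciPy 1.17.1, pysam 0.24.0 and matplotlib 3.10.9 were used. Alternatives changed the threshold, the window, the overlap, the centring, the background and the fold.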

Additional observations from a re-analysis of the deposited data

How the results depend on the processing

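The lists were truncated by the peak caller, the libraries of a group were pooled, and heights were known only where an interval was called, so nothing can be said of regions under a list's calling threshold. No paired analysis was possible because each list merges the reads of both libraries of its group, and leaving out a library was not run for the same reason. Values below are in the order Oxali, Cispl, IFNγ and Oxali + IFNγ unless named. No start-site value at 2-fold or more changed sign. The sign turned for the window median in Cispl (0.017 within 10 classes) and in IFNγ (-0.0015 as reported, 0.014 to 0.11 under all alternatives but no centring), for the start sites under IFNγ of Fos (-0.14, then 0.018 to 0.18) and Jun (-0.28, then 0.0012 to 0.027) and of Maff under Oxali + IFNγ (-0.93, then 0.084 and 0.17), and for Oxali against Cispl (0.027, then -0.063 and -0.073 within 10 and 100 classes). Of the values that answer a comparison, 108 alternatives moved one and 98 did not, and for single genes 126 and 18.

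With windows of 5 kb, strong intervals numbered 68 in Ctrl and 71, 69, 69 and 73, with 50 kb 238 in Ctrl and 258, 273, 241 and 271, and with only those nearest to the member's start 78 in Ctrl and 86, 84, 80 and 93. Gained intervals numbered 10, 11, 7 and 13 with 5 kb and 43, 63, 21 and 59 with 50 kb, and 14 in Cispl with those nearest to the member. Lost intervals numbered 6 in IFNγ with 5 kb, 15, 11, 16 and 15 with 50 kb, and 4, 3, 4 and 3 with those nearest to the member. A q-value of at most 1e-05 gave 5 gained in IFNγ and 5, 4, 5 and 4 lost. A pileup of at least 4 times the background gave 16 gained in Cispl and 20 in Oxali + IFNγ. Requiring an overlap of 50% or more gave 39 gained in Cispl and 14 lost in Oxali and 16 in IFNγ. Leaving out intervals within 500 bp of the other list, an alternative chosen after seeing the data like the centring within 100 classes, gave 6 gained in IFNγ and 3 lost in Oxali + IFNγ.

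Regions at least 2-fold higher numbered 0, 0, 1 and 0 with 5 kb, 8, 9 and 9 with 50 kb in the platinum lists, and 0, 0 and 1 there with those nearest to the member. At 1.5-fold they numbered 7, 8, 11 and 7. Without centring they were 3 in Cispl and 0 in IFNγ, centred within 10 classes of mean level 2 in Cispl, and over the local background 1 in Oxali and 3 in Cispl. Regions at least 2-fold lower numbered 33, 34, 3 and 47 at 1.5-fold, 9 in Cispl and 35 in Oxali + IFNγ with 50 kb, and 2 in Oxali and 12 in Oxali + IFNγ with those nearest to the member. Without centring they were 0 in Cispl and 2 in IFNγ, over the local background 1, 1 and 3 in the platinum lists, and centred within 10 classes 3 in Cispl and 6 in Oxali + IFNγ, within 100 classes 3 and 5.

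The median relative log2 fold of the windows was -0.092, 0.017 and -0.051 in the platinum lists when centred within 10 classes, -0.098, -0.018 and -0.022 within 100 classes and -0.11, -0.13 and -0.10 over the local background. It was -0.25 in IFNγ without centring and -0.62 in Oxali + IFNγ with 5 kb. The start-site median was -0.23, -0.18, -0.14 and -0.52 within 10 classes, -0.12, -0.10, -0.079 and -0.39 within 100 classes, and -0.33, -0.42, -0.12 and -0.56 over the local background. Without centring it was -0.69 in Oxali, -0.66 in IFNγ and -1.20 in Oxali + IFNγ. The share of regions with an AP-1 motif was 31.0% in whole intervals, beside 26.4% of all regions. The cause of these shifts was not tested.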
